A study of Saccharomyces cerevisiae with 2 samples.

Results

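Small nucleolar RNA (snoRNA) genes were examined for Vid22 peaks in the ChIP-seq of a Saccharomyces cerevisiae strain that carries Vid22 with a 13Myc tag. The RefSeq annotation of the sacCer3 genome gives 76 genes the biotype snoRNA. SNR52, which RNA polymerase III transcribes, was left out, and the other 75 are described here, out of 6431 nuclear genes. They lie on 15 of the 16 nuclear chromosomes, and their lengths run between 78 and 1004 bp (median 126 bp). Chromatin of the Vid22-13Myc strain was immunoprecipitated with an anti-MYC antibody. The control is an untagged wild type strain in the study's methods, whereas its labels list no antibody. Both came from cultures that were diluted after overnight growth, grown on and cross-linked with formaldehyde, and DNA of 2 ChIP experiments was pooled into each library. Each condition has 1 library and no replicate, so no test between samples was possible, and the intervals below are 95% Wilson intervals that cover the counting of genes or peaks only. The authors' MACS2 list holds 811 Vid22-13Myc peaks, each with a summit (the position of its maximum) and, for that position, the enrichment over the control as a fold and a −log10 q-value. Of these, 445 have a −log10 q of at least 9 and are called past the threshold. The study reports fewer peaks than that, so its own set of peaks is not the same.

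snoRNAs are short RNAs of the nucleolus that work in protein complexes (snoRNPs) and guide the chemical modification of ribosomal RNA by base pairing. Those with boxes C and D guide 2′-O-methylation and those with boxes H and ACA guide pseudouridylation, while U3, U14, snR30 and snR10 are needed for cleavage of the ribosomal RNA precursor. In budding yeast most snoRNA genes are transcribed on their own by RNA polymerase II, some lie in polycistronic arrays that are cut into single RNAs, and a few sit in introns of protein-coding genes. Tbf1, a general regulatory factor with which Vid22 associates, is known to bind the promoters of many yeast snoRNA genes, and the study gives TAGGG as its consensus. The annotated start of a snoRNA gene is the 5′ end of the mature RNA. For many box C/D genes the precursor begins further upstream and its leader is removed by Rnt1.

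By position, 50 of the 75 genes were independent, 17 formed 5 polycistronic units with gaps of at most 500 bp, and 8 were intron-hosted, which makes 63 transcription units. The annotation describes 44 as box C/D and 29 as box H/ACA, and gives no class for the U3 genes SNR17A and SNR17B. All 17 polycistronic genes are box C/D. The sequence around the summit is printed for the 3 independent genes with the highest fold, the 2 polycistronic units with the highest fold and SNR24, the only intron-hosted gene with a peak past the threshold. Each window spans 241 bases on the gene's strand, with the summit at base 121 and annotated mature snoRNA in capitals. The windows are chrVIII:411010-411250 for SNR71, chrIX:96888-97128 for SNR68 and chrXIII:626273-626513 for SNR83. Those of the arrays are chrV:61769-62009 for SNR53 and chrXIII:296834-297074 for SNR78, all of these on the plus strand. The window of SNR24 is chrXIII:500182-500422 on the minus strand, inside an exon of its host ASC1.
SNR71: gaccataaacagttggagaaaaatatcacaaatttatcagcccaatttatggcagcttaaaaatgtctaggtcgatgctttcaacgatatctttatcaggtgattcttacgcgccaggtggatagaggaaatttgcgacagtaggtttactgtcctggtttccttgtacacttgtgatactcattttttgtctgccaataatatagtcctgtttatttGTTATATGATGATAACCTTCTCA
SNR68: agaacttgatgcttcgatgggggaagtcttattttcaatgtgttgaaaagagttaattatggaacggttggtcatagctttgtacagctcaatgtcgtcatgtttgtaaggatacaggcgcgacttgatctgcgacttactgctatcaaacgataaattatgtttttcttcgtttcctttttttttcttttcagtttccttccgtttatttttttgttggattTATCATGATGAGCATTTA
SNR83: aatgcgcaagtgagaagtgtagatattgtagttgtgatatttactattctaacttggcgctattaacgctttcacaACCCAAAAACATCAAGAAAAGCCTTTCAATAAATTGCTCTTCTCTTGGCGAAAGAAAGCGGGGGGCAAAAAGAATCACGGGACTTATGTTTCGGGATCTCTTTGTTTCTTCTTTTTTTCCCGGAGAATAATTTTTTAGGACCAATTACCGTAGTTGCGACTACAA
SNR53: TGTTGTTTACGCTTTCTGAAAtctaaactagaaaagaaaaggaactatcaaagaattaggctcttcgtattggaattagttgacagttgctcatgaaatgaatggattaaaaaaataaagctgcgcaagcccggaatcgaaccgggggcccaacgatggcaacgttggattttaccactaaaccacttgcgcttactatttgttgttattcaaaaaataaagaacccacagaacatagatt
SNR78: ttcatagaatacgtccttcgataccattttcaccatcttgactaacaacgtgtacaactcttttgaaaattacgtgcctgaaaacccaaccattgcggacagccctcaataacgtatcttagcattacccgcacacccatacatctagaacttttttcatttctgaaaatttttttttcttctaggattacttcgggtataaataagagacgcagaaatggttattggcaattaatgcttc
SNR24: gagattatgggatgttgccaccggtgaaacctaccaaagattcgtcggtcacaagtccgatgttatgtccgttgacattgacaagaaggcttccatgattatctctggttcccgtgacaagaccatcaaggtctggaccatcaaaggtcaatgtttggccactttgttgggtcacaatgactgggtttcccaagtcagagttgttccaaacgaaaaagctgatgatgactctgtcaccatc

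None of the 6 windows holds TAGGG on either strand, and the GC content runs between 35.3% in the SNR68 window and 46.5% in the SNR24 window. The SNR71 and SNR68 summits lie 98 and 103 bp before the mature RNA, and the SNR83 summit 44 bp after its first base. The SNR53 summit lies 100 bp past the last base of the array, where the nearest gene start is that of the tRNA gene YNCE0004C, 71 bp away. The SNR78 summit lies 324 bp before the first gene of its array, and the SNR24 summit 230 bp before the snoRNA.

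Peaks past the threshold overlapped the gene or its 500 bp upstream at 26 of the 75 snoRNA genes, or 34.7% (interval 24.9 to 45.9%), against 14.1% of all nuclear genes. The share was 60.4% for the 275 tRNA genes and 11.8% for the 6002 protein-coding genes, whose windows are longer than those of snoRNA genes. With 500 bp upstream alone, a window of the same length for every gene, the shares were 29.3% of snoRNA genes (22 genes) and 12.7% of all genes. A summit fell in the gene or its upstream window at 17 snoRNA genes (22.7%, interval 14.7 to 33.3%), against 8.38% of all genes. In the 500 bp upstream alone a summit fell at 8 snoRNA genes (10.7%, interval 5.5 to 19.7%). The share of all genes in that window was 6.03%, which lies within the interval. With the whole deposited list, including peaks below the threshold, 61 snoRNA genes had a peak (81.3%, interval 71.1 to 88.5%), against 20.2% of all genes. In that list the share of snoRNA genes was above that of tRNA genes, of which 178 (64.7%) had a peak. The order of the 2 RNA classes thus turned with the threshold. With a −log10 q of at least 20, only 3 snoRNA genes were left (4.0%, interval 1.37 to 11.1%), against 8.13% of all genes, so at that height their share was no longer above that of all genes. With an overlap of at least 50% of the window, at a −log10 q of at least 9, 12 snoRNA genes had a peak (16.0%, interval 9.4 to 25.9%), against 4.79% of all genes. Under this rule a longer window needs a longer peak, so the share of all genes also depends on the length of their windows. The share of tRNA genes was 4.0% (11 of 275), below that of snoRNA genes. Counted by transcription unit, 22 of 63 units (34.9%) had a peak past the threshold and 50 had any peak.

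**Figure D1:**
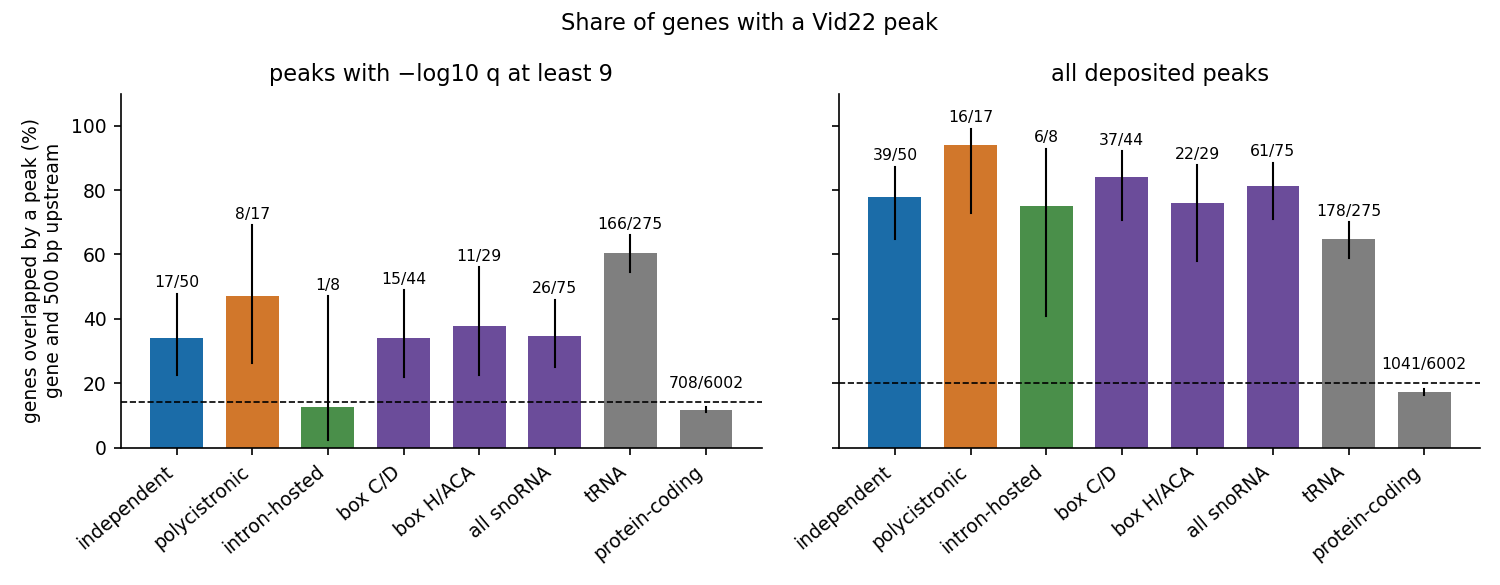
Share of genes (%, vertical axis) with a Vid22 peak in the gene or 500 bp upstream, for peaks with a −log10 q of at least 9 (left) and for all deposited peaks (right). Bars are shares, lines are 95% Wilson intervals, numbers are genes with a peak over genes counted, and the dashed line is the share of all 6431 nuclear genes. All snoRNA genes stand at 34.7% on the left and 81.3% on the right, against dashed lines at 14.1% and 20.2%.

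The peaks at snoRNA genes were low. The 26 genes shared 23 peaks, whose fold enrichment ran between 1.47 and 2.16 with a median of 1.68, against a median of 1.88 and a maximum of 6.98 for the other 422 peaks past the threshold. Only the peaks of SNR71 and SNR68 exceeded 2, whereas 169 of the other peaks did. No snoRNA gene had a peak of more than 3-fold (0 of 75, interval up to 4.87%), against 4.84% of all genes, a share that lies within that interval. The median length of the peaks was 606 bp at snoRNA genes and 521.5 bp for the others. Below the threshold, 33 further deposited peaks lay at snoRNA genes, with folds of 1.21 to 1.59.

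**Figure D2:**
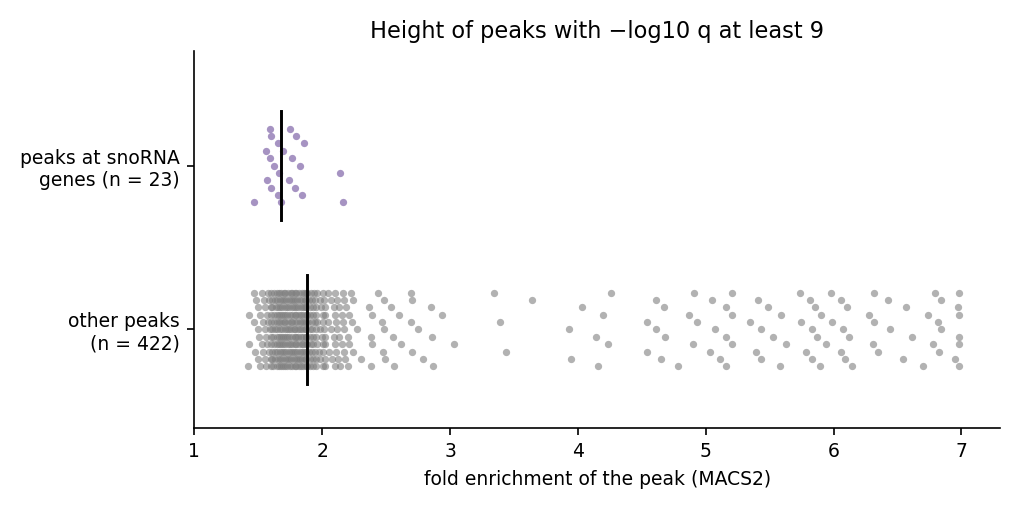
Fold enrichment of single peaks with a −log10 q of at least 9 (horizontal axis, no unit). Each point is a peak (spread vertically for visibility) and the black lines are medians, 1.68 for the 23 peaks at snoRNA genes and 1.88 for the 422 others, which reach 6.98.

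SNR71 and SNR68, both independent box C/D genes whose RNAs guide 2′-O-methylation of the large subunit rRNA, had the highest peaks of all snoRNA genes. SNR71 (chrVIII:411228-411317) had a fold of 2.16 and a −log10 q of 30.5 in a peak of 1002 bp that also touched LAM1 and LIN1. SNR68 (chrIX:97111-97246) had a fold of 2.14 and a −log10 q of 31.0 in a peak of 988 bp. Both summits lay about the same distance before the mature RNA, as the printed windows show. The next gene in order, SNR83, stood at 1.86, so these 2 genes were set apart from the remaining 24. Since there is 1 library, no error can be given for these folds.

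Among independent box C/D genes, 4 more had a peak. SNR66 had a fold of 1.59, with the summit 408 bp upstream and inside NME1, which encodes the RNA of RNase MRP, a ribonucleoprotein that acts in pre-rRNA processing. SNR39B (chrVII:366374-366469) had a fold of 1.66 and SNR79 (chrXII:348427-348510) one of 1.65, and the summits of both lay within the mature RNA, 38 and 54 bp from its first base. SNR13 had a fold of 1.60, with the summit 92 bp past its last base and nearest to the start of TRS31. The C/D genes thus had summits before, in and after the gene.

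Independent box H/ACA genes had their summits in or after the mature RNA, apart from the higher of 2 peaks at SNR80. In 6 of them the summit lay inside the gene. SNR83 (chrXIII:626349-626654), whose RNA guides pseudouridylation of the small subunit rRNA, had a fold of 1.86 and a −log10 q of 18.8. SNR84 (chrIV:1492477-1493026) had 1.84, with the summit 71 bp before its last base, and SNR42 (chrXI:559016-559366) had 1.79, with the summit 39 bp before its last base. These 2 RNAs guide pseudouridylation of the large subunit rRNA. SNR8 (chrXV:832332-832521) had 1.68, SNR30 (chrXII:198784-199389) 1.66 and SNR35 (chrXV:759326-759529) 1.59. Their summits lay 53, 292 and 6 bp before the last base. snR30 is essential and is needed for release of the precursor of the 18S rRNA, and its −log10 q was 18.3.

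In 3 further H/ACA genes the summit lay just past the 3′ end. The distances from the last base were 19 bp at SNR9 (fold 1.74), 29 bp at SNR32 (fold 1.60) and 49 bp at SNR3 (fold 1.57). SNR80 had 2 peaks, of which the upstream one (fold 1.83) had its summit inside the ribosomal protein gene RPL12A. The other (fold 1.69) overlapped the 3′ end of SNR80 and had its summit 342 bp past the SNR80 start. SNR189 was reached by the edge of a peak of 1218 bp (fold 1.76), whose summit lay in RPS14A, 1145 bp from the SNR189 start. The gene start nearest to that summit was that of SNR65, 470 bp away, but the peak lay past the 3′ end of SNR65 and outside its window, so SNR65 counts as a gene without a peak. Whether the peaks with a summit in a ribosomal protein gene belong to the snoRNA gene was not tested.

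**Figure D3:**
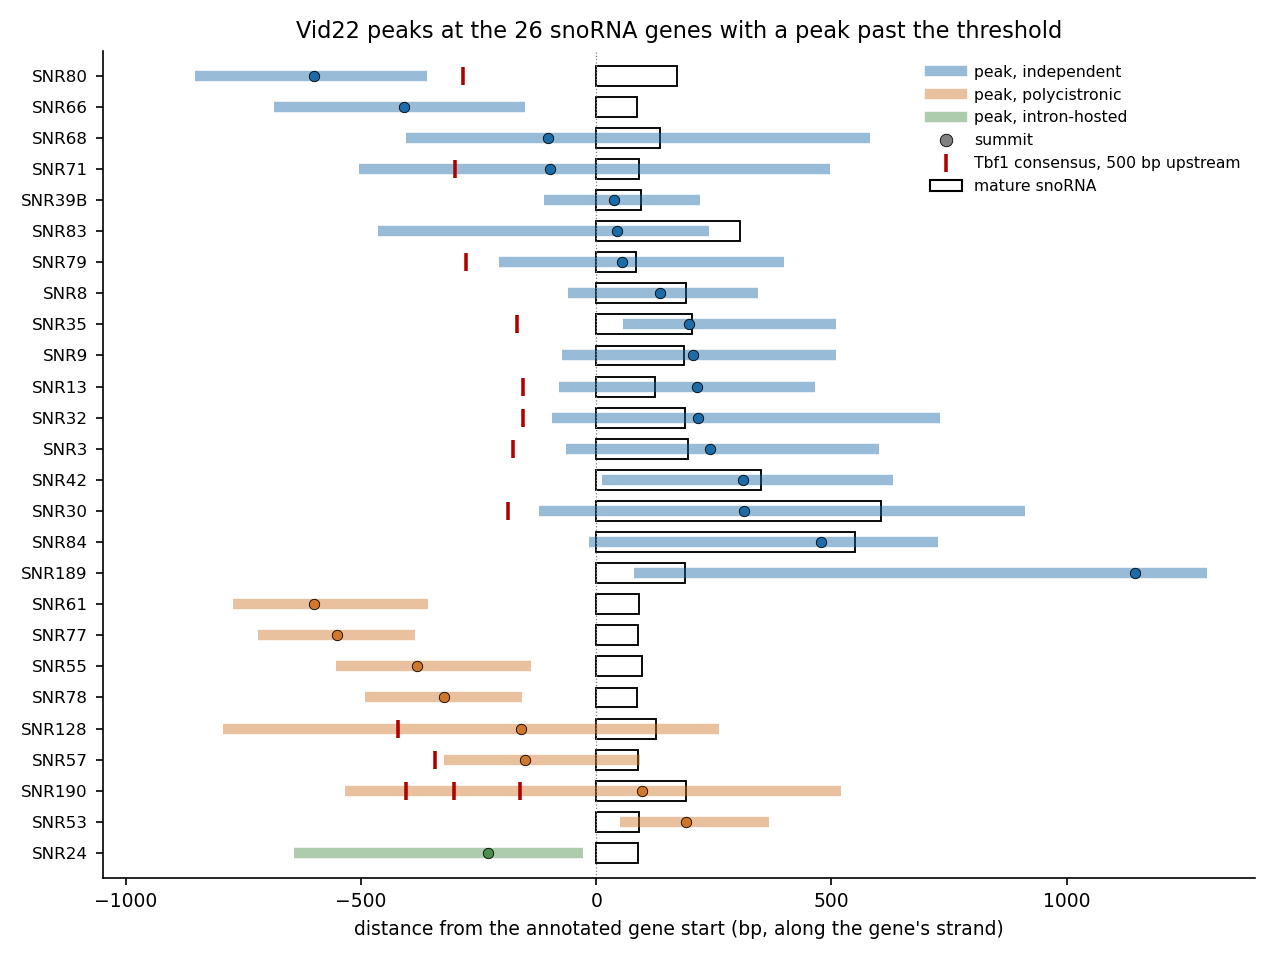
Peaks along the 26 snoRNA genes with a peak past the threshold, aligned at the annotated gene start (horizontal axis, bp along the gene's strand). Coloured bars are the peaks, circles their summits, open boxes the mature snoRNA and red ticks the Tbf1 consensus in the 500 bp upstream. For SNR80 only the higher of its 2 peaks is drawn. At SNR13, SNR3, SNR30, SNR32, SNR35, SNR57 and SNR79 the tick lies upstream of the peak. At SNR71, SNR190 and its array partner SNR128 ticks lie within the peak but away from the summit. At SNR80 the tick lies between the drawn peak and the gene.

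Taking the highest peak of each of the 26 genes, 9 summits lay in the gene, 8 in the 500 bp upstream, 5 in the 500 bp downstream, 3 further upstream and 1 further downstream. The summit was within 100 bp of the last base at 12 genes and within 100 bp of the first base at 5. Among the 17 independent genes the same counts were 10 and 4. Per kb of sequence, the density of summits was 0.662 in snoRNA genes, 0.187 in the 500 bp upstream and 0.213 in the 500 bp downstream. The same densities were 2.32, 0.4 and 0.4 for tRNA genes and 0.0108, 0.077 and 0.0423 for protein-coding genes. In snoRNA and tRNA genes the gene itself was the densest of the 3 zones, whereas in protein-coding genes the upstream zone was. The 26 genes include arrays that share a peak, so these are not 26 separate positions.

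Box H/ACA and box C/D genes had similar shares, with intervals that overlap. A peak past the threshold was found at 11 of 29 H/ACA genes (37.9%, interval 22.7 to 56.0%) and at 15 of 44 C/D genes (34.1%, interval 21.9 to 48.9%), against 14.1% of all genes. No H/ACA gene had a summit in its 500 bp upstream (0 of 29, interval up to 11.7%), against 8 of 44 C/D genes (18.2%, interval 9.51 to 32.0%) and 6.03% of all genes. The 8 C/D genes included 4 array members, which shared 3 summits, and the intron-hosted SNR24. Among independent genes alone the counts were 0 of 27 H/ACA and 3 of 21 C/D genes, and the intervals (up to 12.5%, and 4.98 to 34.6%) overlapped. With all deposited peaks the count for H/ACA genes was no longer 0. A summit then lay in the upstream window of 4 of 29 H/ACA genes (13.8%) and 20 of 44 C/D genes (45.5%). The same share was 6.9% for protein-coding genes and 20.4% for tRNA genes. The 20 C/D genes shared 17 summits, and included 9 array members and 4 intron-hosted genes. Among independent genes alone the counts were 3 of 27 H/ACA genes (11.1%) and 7 of 21 C/D genes (33.3%). These shares with all deposited peaks have no interval and no share of all genes beside them, and their difference was not tested.

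Polycistronic genes had a peak in 8 of 17 cases (47.1%, interval 26.2 to 69.0%), independent genes in 17 of 50 (34.0%, interval 22.4 to 47.8%) and intron-hosted genes in 1 of 8 (12.5%, interval 2.24 to 47.1%). The share of all genes was 14.1%, close to that of the intron-hosted genes and within their interval. The 3 intervals overlap. A single peak can serve several genes of an array, and the 8 polycistronic genes shared 4 peaks. The intervals of polycistronic and of C/D genes treat array members as separate genes and are thus likely too narrow. Of the 5 arrays, 4 had a peak past the threshold. The array of SNR67 and SNR53 had a fold of 1.80 and a −log10 q of 21.2, but the peak lay at the 3′ end over the tRNA gene and SNR67 itself had no peak in its window. At the array of 7 genes led by SNR78 a peak of 1.75-fold lay upstream of the first gene, nearest to the start of SEC59, and 2 peaks below the threshold (folds 1.43 and 1.41) lay over the array. The peak upstream of SNR78 was the only one of the 23 that overlapped or lay within 200 bp of a predicted G-quadruplex-forming element, or 4.35%. The share was 21.1% (89) for the other 422 peaks and 14.8% (49) for the 332 of them with a fold of at most 3. It was 5.03% (8) for the 159 peaks that overlap a tRNA gene and no snoRNA window, close to that at snoRNA genes. The share at snoRNA genes rests on 1 peak and has no interval, and these differences were not tested.

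The array of SNR57, SNR55 and SNR61 had a peak of 1.62-fold with the summit 151 bp before SNR57. SNR190 and SNR128 lay under a peak of 1056 bp with a fold of 1.47, the lowest past the threshold at any snoRNA gene, and its summit was in SNR190. SNR128 encodes U14, which is essential for release of the 18S rRNA precursor. The array of SNR41, SNR70 and SNR51 stayed below the threshold, with a fold of 1.50 and a −log10 q of 8.69.

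Of the intron-hosted genes only SNR24 in ASC1, which encodes a ribosome-associated protein, had a peak past the threshold (fold 1.56, −log10 q 10.5), and its summit lay in an exon. SNR44 in RPS22B reached a fold of 1.59 and a −log10 q of 8.68, with the summit 458 bp upstream of the host gene. SNR59 in RPL7B had 1.50, SNR54 in IMD4 1.43, SNR39 in RPL7A 1.33 and SNR191 in NOG2 1.27, all below the threshold. SNR18 in EFB1 and SNR38 in TEF4 had no deposited peak in their windows. Over the host genes themselves with 500 bp upstream, peaks past the threshold were found at ASC1, at NOG2 (fold 1.66, summit 572 bp past the SNR191 start) and upstream of RPL7A. The peak upstream of RPL7A is that of SNR39B, the independent paralogue of SNR39.

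**Figure D4:**
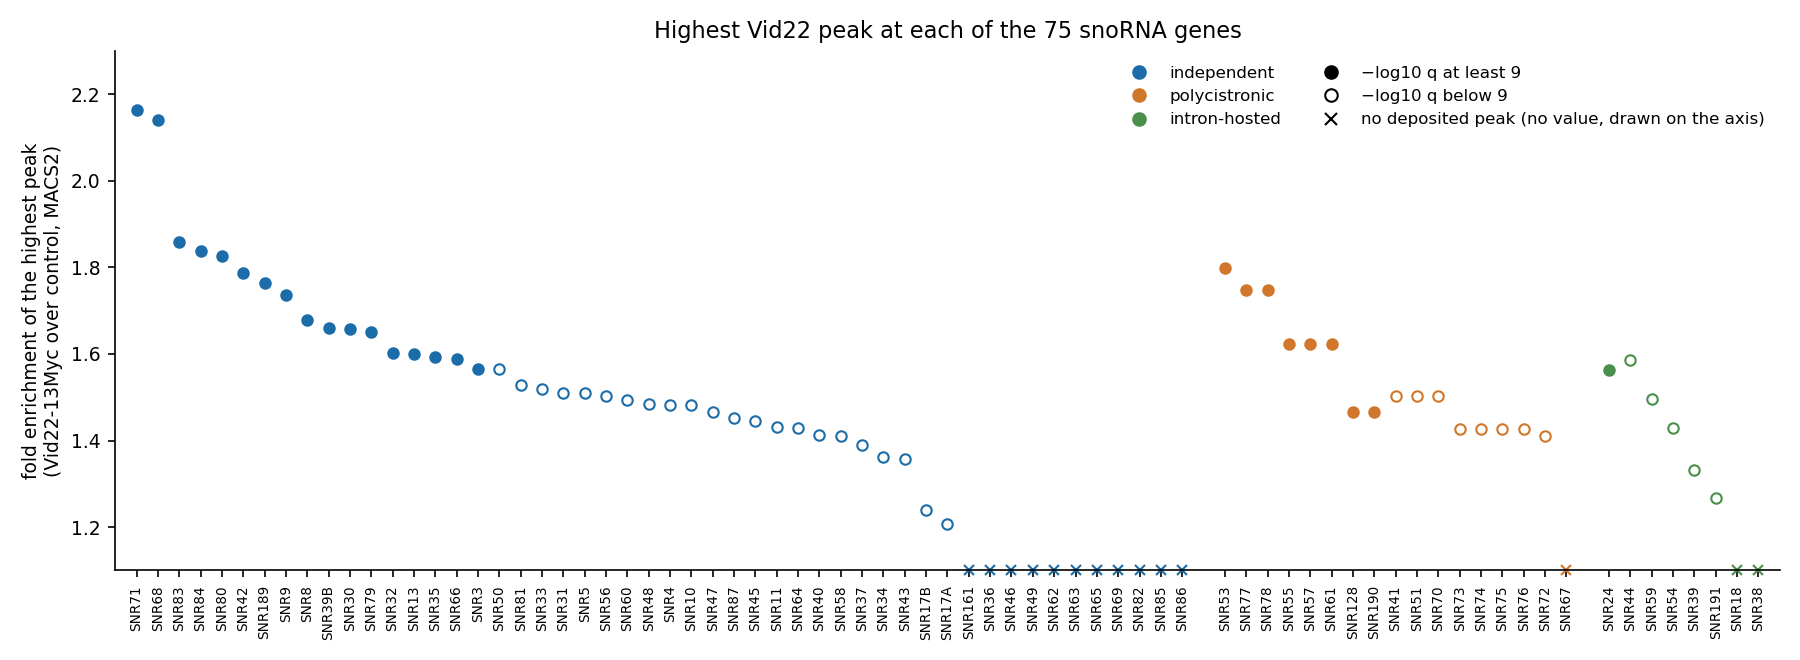
Fold enrichment of the highest deposited Vid22 peak (vertical axis, Vid22-13Myc over control) at each of the 75 snoRNA genes, ordered within independent, polycistronic and intron-hosted genes. Filled circles are peaks with a −log10 q of at least 9, open circles are peaks below it, which are shown where a gene has no other, and crosses on the axis mark the 14 genes without a deposited peak. SNR71 and SNR68 stand at 2.16 and 2.14, and all other genes lie below 1.9.

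The 75 genes fell into 26 with a peak past the threshold, 35 with only a weaker peak (−log10 q of 1.82 to 8.91) and 14 with none. The threshold cut through a continuous range. Just inside it were SNR66 (9.47), SNR35 (9.53) and SNR79 (10.1), and just outside were SNR76, SNR75, SNR74 and SNR73 under a shared peak (8.91), SNR48 (8.82) and SNR56 (8.69). Among the snoRNAs that act in rRNA cleavage, SNR30 and U14 had a peak past the threshold, SNR10 had a fold of 1.48 at a −log10 q of 8.47, and the U3 genes had the lowest folds of all, 1.21 at SNR17A and 1.24 at SNR17B. The 14 genes without a peak were SNR161, SNR36, SNR46, SNR49, SNR62, SNR63, SNR65, SNR69, SNR82, SNR85 and SNR86, which are independent, SNR67 in an array, and the intron-hosted SNR18 and SNR38. They included both box classes, with 7 genes of each. In all 14 every 50-base stretch of the window occurs once in the genome, and this was so for 71 of the 75 genes, the lowest share being 80.5% at SNR33.

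The Tbf1 consensus was frequent upstream of snoRNA genes. TAGGG was searched on both strands, and TTAGGG, the form with 1 more base, is contained in that search. TAGGG occurred in the 500 bp upstream of 44 of 75 snoRNA genes (58.7%), against 34.0% of all genes, and TTAGGG in 28 (37.3%), against 13.0%. In the 250 bp upstream the shares were 29.3% against 18.5% of all genes for TAGGG, and 16.0% against 6.34% for TTAGGG. Counting only independent genes and the first gene of each array (55 promoters), 36 held TAGGG and 26 held TTAGGG. Intron-hosted genes had TAGGG in 2 of 8 cases and TTAGGG in 1.

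Orientation and position of the sites were compared with those of the sites upstream of all genes. Of the 27 TTAGGG sites before the 55 promoters, 23 (85.2%) read CCCTAA on the gene's strand, against 51.4% of the sites upstream of all genes. They lay 378 to 33 bp before the start, and 24 of 27 (88.9%) lay between 400 and 100 bp, against 64.9% for all genes. The median position was 300 bp before the start for box C/D genes and 170 bp for H/ACA genes, 15 and 11 sites each. On the strand that reads CCCTAA, the bases AA or AG came just before it at 21 of 26 distinct sites (80.8%, since the divergent SNR31 and SNR5 share a site), against 17.8% of the 749 distinct sites upstream of all genes. The shares of 51.4% and 64.9% are over 925 sites, where a site upstream of several genes counts for each of them. A site between divergent genes thus counts in both orientations. The zone of 400 to 100 bp and the bases AA or AG were not among the planned rules. Both are counted on the same sites that they describe, so these contrasts are descriptive and were not tested. The 9 sites in units with a peak past the threshold are printed, 30 bases each on the gene's strand with CCCTAA in capitals.
SNR13: cttattatttaaCCCTAAgaactttatttt
SNR67: tataggttcaagCCCTAActttccacctcg
SNR71: ttgtggtgctaaCCCTAAgtactttttttt
SNR190: aaccacacgctgCCCTAAgaaaaaactttc
SNR3: tgttagattgtgCCCTAAcgttccagtaat
SNR30: ctagcgtagtaaCCCTAAaccatcagcggc
SNR79: tttgtcaattagCCCTAAgaaatattattc
SNR57: tatatgattgaaCCCTAAcaaatgctacag
SNR35: taactcaagggaCCCTAAtacgccgttctt

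Vid22 summits did not lie at these sites. In all 9 cases the summit was downstream of the TTAGGG site, at a distance of 191 bp (SNR57) to 907 bp (the array of SNR67), with a median of 371 bp. Sites were searched before the start only, whereas 16 of 22 summits lay at or past it, so this order was partly set by the search. SNR80 had TAGGG but no TTAGGG upstream, 284 bp before the start. Its higher peak had the summit 600 bp before the start, upstream of that site, and its other peak 342 bp past the start. SNR71, with the highest fold, had its site 300 bp before the start and its summit 202 bp further on. At SNR30 the site was 187 bp before the start and the summit 500 bp from it, inside the gene. Of all 27 TTAGGG sites, 2 lay inside a peak past the threshold and 0 had a summit within 100 bp, against 19.4% and 13.5% of the sites upstream of all genes. For the 44 TAGGG sites the counts were 4 inside a peak and 0 near a summit, against 15.6% and 10.0% for all genes. These counts are small and have no interval. The shares of all genes take in peaks of any height past the threshold, also those above 3-fold, which no snoRNA gene had. These differences were not tested.

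**Figure D5:**
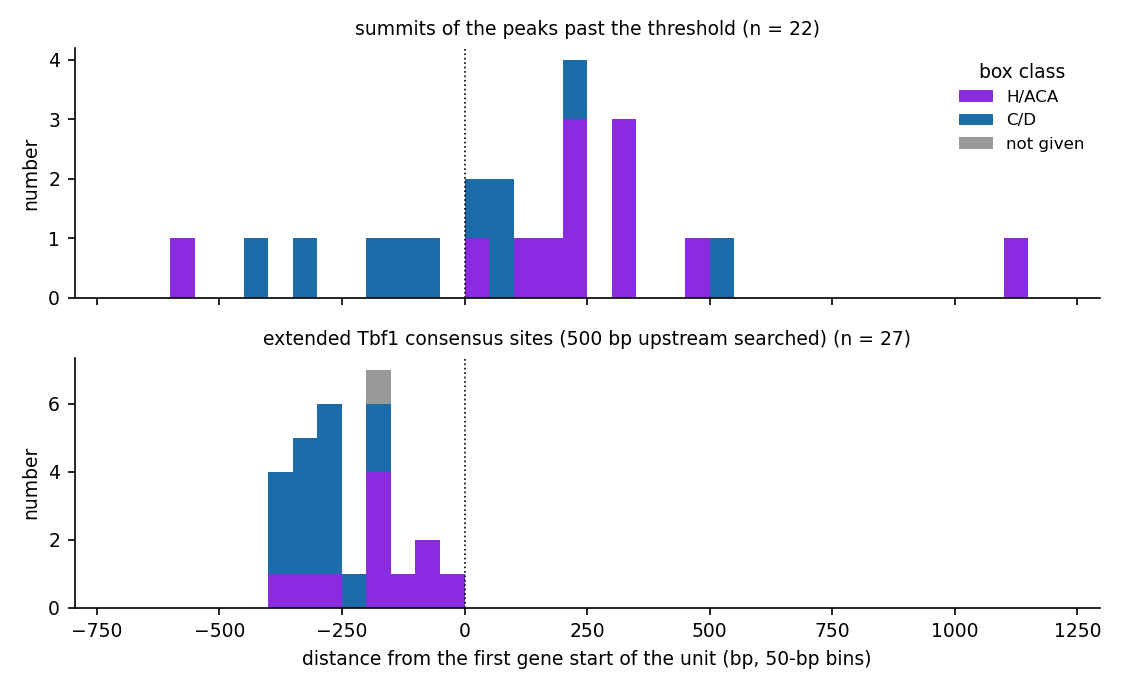
Number of summits of peaks past the threshold (top, 22 summits at 21 transcription units that are not intron-hosted) and of TTAGGG sites in the 500 bp upstream (bottom, 27 sites), by distance from the first gene start of the unit (horizontal axis, bp along the strand, bins of 50 bp). Colours give the box class. Of the 22 summits 16 lie at or past the start, while the sites, which were searched upstream only, lie 378 to 33 bp before it.

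The same was counted from the peaks. Of the 23 peaks at snoRNA genes, 0 had TAGGG within 100 bp of the summit (interval up to 14.3%), against 161 of the other 422 peaks (38.2%). Height also differed between these sets, and TAGGG was near the summit of 94.4% of peaks above 3-fold. Among other peaks of at most 3-fold the share was 22.9% (76 of 332, interval 18.7 to 27.7%). It was 19.5% (31 of 159, interval 14.1 to 26.3%) for peaks that overlap a tRNA gene and no snoRNA window. That interval overlaps the one at snoRNA genes. The nearest TAGGG to a summit at a snoRNA gene was 106 bp away, at SNR8, and the median distance was 369 bp. Within 200 bp, 3 of the 23 had a site, with no share of other peaks given at that distance. Among the 33 weaker peaks at snoRNA genes 5 had one within 100 bp (15.2%, interval 6.65 to 30.9%). The 22.9% of other peaks of at most 3-fold, which are past the threshold, lies within that interval. TAGGG was present in the 500 bp upstream of 11 of the 26 genes with a peak past the threshold (42.3%), of 24 of the 35 with only a weaker peak (68.6%) and of 9 of the 14 with none (64.3%), and these differences were not tested.

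The peaks were also placed against neighbouring genes. The nearest gene start to the summit was that of a snoRNA gene for 18 of the 23 peaks, one of which is the peak at SNR189, counted through SNR65. The 23 peaks were chosen by their overlap with a snoRNA gene or its upstream window, so this count was largely set by the choice. The others were nearest to TRS31, RPL12A, the tRNA gene YNCE0004C, SEC59 and NME1. A tRNA gene was overlapped by 1 of the 23 peaks, against 159 of the other 422. Summits inside a protein-coding gene numbered 3, in RPS14A, RPL12A and ASC1. With only the peaks nearest to a snoRNA start, a choice made after seeing the data, 21 genes kept an overlap and 15 a summit. That choice also selects for snoRNA genes, and no share of all genes is given for it.

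Genes for proteins that build and process snoRNPs were counted in the same way. In a list of 25 such genes, 2 had a peak past the threshold (8.0%), against the 14.1% of all genes. None of the 4 box C/D core proteins (Nop1, the methyltransferase, with Nop56, Nop58 and Snu13) and none of the 4 H/ACA core proteins (Cbf5, the pseudouridine synthase, with Nhp2, Nop10 and Gar1) had one at its gene. Weaker peaks were present at NOP1 (fold 1.32), NOP56 (1.61) and NHP2 (1.51). Among 9 assembly factors HIT1 had a peak of 1.79-fold, which lay nearest to the tRNA gene HSX1. Among 8 processing and termination factors RNT1, which encodes the RNase III that cuts snoRNA precursors, was reached by the edge of a peak of 5.87-fold. That summit lay 1775 bp upstream of RNT1, nearest to the start of CUS1 and 12 bp from a TAGGG. NRD1, a termination factor for snoRNA transcripts, had a weaker peak of 1.54-fold.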

How the data were processed

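ChIP-seq of Vid22-13Myc and control cells was sequenced by the authors as reads of 50 bp. They aligned with Bowtie, removed duplicates with SAMtools and called peaks with MACS2 (versions not given in the sources used here). The deposited list gives, on sacCer3, each peak's integer score (10 times the −log10 q, rounded down), the deposited fold enrichment (ratio to the local control level) together with the deposited −log10 values of p and q (p-value and q-value). The depth of reads is unknown, since the list holds no counts, and the control's own profile was not analysed here. The study's FDR threshold, read as a −log10 q of at least 9, is not applied in the list, which reaches down to 1.34, and was applied here.

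Genes, introns and descriptions came from the RefSeq annotation, and all 75 genes were matched by biotype. A window was the gene with 500 bp upstream, and an overlap needed 1 bp. The box class is the one a description names first. TAGGG and TTAGGG were searched on both strands, and a predicted G-quadruplex element was 4 or more G tracts of 3 bases separated by 1 to 25 bases. Genes named in full were those with a summit in the window, every array and intron-hosted gene, and U3, U14, SNR30 and SNR10. Other genes with a peak and the members near the threshold were named after their values were seen. The members, the list of snoRNP genes and the rules were chosen with earlier results of these data known. Counts were checked on 20 sets of placed peaks and against bedtools, and all 20 matched. Alternatives covered the threshold, the window, the overlap, the length of peaks, the gap within arrays and the distance to the motif. Python 3.11.15, numpy 2.4.6, scipy 1.17.1 and matplotlib 3.10.9 were used.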

Additional observations from a re-analysis of the deposited data

How the results depend on the processing

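Of 105 recomputed values, 67 stayed within 1.5 times the reported count or within the spread of the folds, and the other 38 are given here. With all deposited peaks, 61 genes had an overlap and 43 a summit: 39 independent, 16 polycistronic and 6 intron-hosted, or 37 C/D, 22 H/ACA and both U3 genes (2). Then 50 units and 6 snoRNP genes had a peak, 5 of 56 peaks had TAGGG near the summit and the median fold was 1.50. With a −log10 q of at least 20, 3 genes had an overlap and 2 a summit: 2 independent, 1 polycistronic and 0 intron-hosted, or 3 C/D and 0 H/ACA. Then 3 units and 1 snoRNP gene remained, and the median fold was 2.14. With the gene alone, 9 genes had a summit, and 4 polycistronic, 0 intron-hosted, 9 C/D and 1 snoRNP gene had an overlap. With 500 bp upstream alone, 8 genes had a summit (10.7%), against 6.03% of all genes. With 250 bp upstream 1 snoRNP gene had an overlap, and with 1000 bp 2 intron-hosted genes had one. With an overlap of at least 50% of the window, 12 genes were left: 6 independent and 5 polycistronic, or 9 C/D and 3 H/ACA, in 10 units. TAGGG lay within 200 bp of 3 summits. With 500 bp on both sides of the gene, an alternative chosen after seeing the data, 26 genes had a summit, against 11.4% of all genes. No paired analysis was possible because each condition has 1 library and the result comes from no test between samples. Without replicates or read counts, neither the error of a fold nor the depth behind a peak can be given.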
